A study of Homo sapiens with 4 samples.

Results

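Membrane carriers that bring amino acids and glucose into the cell, or move lactate across its membrane, were followed in H9 human embryonic stem cells by long-read RNA sequencing. The genes were chosen by name, with earlier results of these data known: SLC7A5, SLC3A2, SLC7A3, SLC7A1, SLC1A5, SLC38A1, SLC38A2, SLC2A1, SLC2A3 and SLC16A1. All 10 were found among the 16174 genes of the deposited table. The study asked what repression of the long non-coding RNA gene SNHG26 does to these cells. H9 is a widely used cell line in the primed state. All cells carried dCas9-KRAB, a Cas9 that cannot cut DNA joined to the KRAB repressor domain, under a promoter switched on by doxycycline. It was put in with a transposase and kept by puromycin selection, and all cells were given doxycycline. One arm received 4 pooled guides against SNHG26, and the other received non-targeting control guides. RNA was taken on day 2 or day 3 of doxycycline, with 1 library for each arm and day, so that each arm and each day has 2 libraries.

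Amino acids, glucose and lactate do not cross the plasma membrane on their own, and cells control their supply partly by how much of each carrier they make. SLC7A5 (LAT1) brings in leucine and other large neutral amino acids and reaches the membrane only as a pair with the glycoprotein SLC3A2 (4F2hc, CD98). Leucine that enters this way is sensed by mTORC1 at the lysosome. When amino acids run short, the transcription factor ATF4 is made and raises many carrier genes, and MYC and hypoxia-inducible factor are known regulators of SLC7A5, SLC1A5, SLC2A1 and SLC16A1. Primed stem cells rely strongly on glycolysis, take up much glucose and release lactate.

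The values were TPM (reads of a gene per unit of its length, rescaled so that each library has the same total) as the authors deposited them. From the steps between values, 2853 genes (20.6% of 13840 above 0) came out as whole reads on a length from end to end, introns included. Of the carriers only SLC7A1 was among them, and the length used for the others is not known. Levels of different genes below are called TPM per genomic span, an assumption for those others. Division by span puts a compact gene such as SLC7A3 (span of 5547 bases) high against a long one such as SLC38A1 (86955 bases). Sequencing was shallow. If each read lay on the full span of its gene, the libraries held at most between 947338 and 1220265 reads, and both day 3 libraries were deeper than both day 2 libraries. SNHG26 was listed at 0 and 0.933 TPM with its guides on day 2 and day 3, against 2.98 and 4.03 TPM with control guides. Of 8 markers of primed stem cells fixed as a list, 7 were listed and 6 had a value in all 4 libraries, with sums from 1399 to 1595 TPM, while ZIC2 was listed at 0. Of 5 markers of mesendoderm 2 were listed, and they summed to at most 1.98 TPM. Of 5 markers of amnion and trophectoderm 1 was listed, at no more than 1.29 TPM. Of 3 markers of neuroectoderm 0 were listed, and a gene that is not listed has no value here. The labels do not say whether the libraries came from separate cultures, so the p-values below measure the spread between these libraries, which may be technical. The main tests of the guides left the day out and those of the days left the arm out. That spread therefore includes differences by the other factor. In bulk RNA, fewer cells expressing a gene and less RNA per cell cannot be told apart.

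By mean over the 4 libraries, in TPM per genomic span, the order was SLC7A3 (94.1), SLC38A2 (68.3), SLC3A2 (27.2), SLC2A1 (24.1), SLC2A3 (21.6), SLC1A5 (10.8), SLC16A1 (5.31), SLC7A1 (5.10), SLC38A1 (2.98) and SLC7A5 (0.544). The cationic carrier SLC7A3 and the glutamine and alanine carrier SLC38A2 stood above the rest, and SLC38A2 was above SLC3A2 in 4 of 4 libraries with no overlap of their ranges. SLC7A3 was above SLC38A2 in 4 of 4 libraries, although the ranges over libraries overlapped. The ranges of each further pair of neighbours from SLC3A2 down to SLC38A1 overlapped. Compared within a library, SLC7A1 was above SLC38A1 in 4 of 4. The other pairs kept their order in 2 or 3 of 4 libraries, so it is not settled. Genes further apart in the order could be separate, such as SLC3A2 (22.5 to 33.8 TPM) and SLC1A5 (5.47 to 17.2 TPM). Within a library, SLC7A3 lay above 91.6% to 93.4% of the genes with a value, SLC38A2 above 89.5% to 91.7%, and SLC38A1 above 48.3% to 54.7%.

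**Figure D1:**
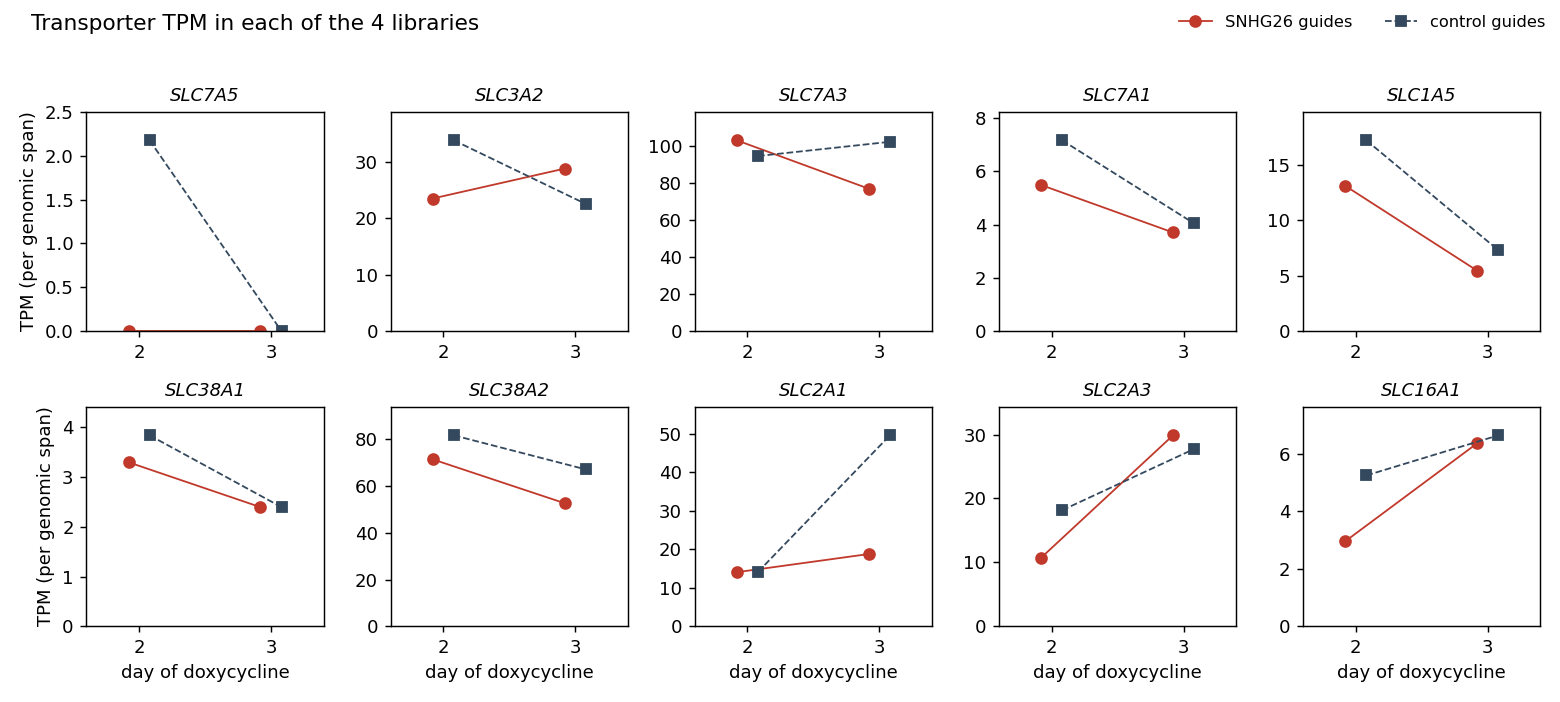
TPM per genomic span (vertical axis, from 0, with a scale for each gene) of the 10 carriers on day 2 and day 3 of doxycycline, with red circles for the SNHG26 guides and dark squares for the control guides. Each point is 1 library and the lines join the 2 days of an arm; both lines slope down for SLC7A1, SLC1A5, SLC38A1 and SLC38A2 and up for SLC2A1, SLC2A3 and SLC16A1.

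More carriers had days that did not overlap than had guide arms that did not. In 7 of the 9 carriers that passed the filter (a mean of at least 1 TPM), both day 3 libraries lay on the same side of both day 2 libraries. This held for 35.5% of the 8274 genes that passed the filter. A random order of the 4 libraries separates the days with a chance of 0.333, near that share. Over these genes, the day changes of the 2 arms had a correlation of 0.0464. The carriers were chosen with earlier results of these data known. The 4 amino acid carriers SLC1A5, SLC7A1, SLC38A2 and SLC38A1 were lower on day 3, against 18.4% of all genes tested, and both glucose carriers and the lactate carrier SLC16A1 were higher, against 17.1%. None of the 9 passed the test across all genes (limma, Benjamini-Hochberg adjustment, threshold 0.05), in which 3 genes or 0.0363% were called. At an unadjusted p under 0.05 there were 2 carriers, SLC1A5 and SLC2A3, against 6.61% of all genes. The depth and the summed primed markers moved with the day as well, the markers from 1399 and 1435 TPM on day 2 to 1579 and 1595 TPM on day 3. The 3 listed naive markers summed to 9.91 and 8.59 TPM on day 2 and to 13.0 and 10.4 TPM on day 3, and the 1 listed marker of amnion and trophectoderm stood at 0 and 0 TPM and at 0.417 and 1.29 TPM. The part of these in the day differences was not tested. The length of doxycycline exposure and the time in culture cannot be told apart in this design.

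SLC1A5 (ASCT2; chromosome 19, 46774883 to 46788594, minus strand) exchanges glutamine and other neutral amino acids. It was listed at 13.1 TPM in the SNHG26 arm and 17.2 TPM in the control arm on day 2, and at 5.47 and 7.32 TPM on day 3. Both day 3 libraries were below both day 2 libraries, at 0.417 times the day 2 value in the SNHG26 arm and 0.425 times in the control arm. The means were 15.2 ± 2.90 TPM (SD, n = 2) on day 2 and 6.39 ± 1.31 TPM (SD, n = 2) on day 3. On log2(TPM + 1), the scale of every change below, the difference was -1.13 (SE 0.30), with a limma adjusted p of 0.595 (unadjusted 0.0211). On the full gene span the values correspond to at most 24.7 and 29.4 reads on day 2 and 11.5 and 14.9 reads on day 3, so the difference rests on few reads.

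SLC7A1 (CAT1; chromosome 13, 29509414 to 29595688, minus strand) carries arginine and lysine, and is the only one of the 10 whose values came out as whole reads on its gene span. It was listed at 5.49 TPM (65 reads) and 7.17 TPM (77 reads) on day 2 and at 3.71 TPM (49 reads) and 4.05 TPM (52 reads) on day 3, in each case with the SNHG26 guides first. The days did not overlap, at 6.33 ± 1.19 TPM (SD, n = 2) on day 2 and 3.88 ± 0.239 TPM (SD, n = 2) on day 3. The change was -0.58 (SE 0.30), with a limma adjusted p of 0.760. The exact Poisson 95% intervals of the reads ran from 4.24 to 7.001 TPM and from 5.66 to 8.96 TPM on day 2, and from 2.74 to 4.90 TPM and from 3.02 to 5.31 TPM on day 3. Within the control arm the intervals of the 2 days were separate, and within the SNHG26 arm they overlapped. These intervals cover counting error only, since amplified reads without molecular identifiers are not independent molecules.

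**Figure D2:**
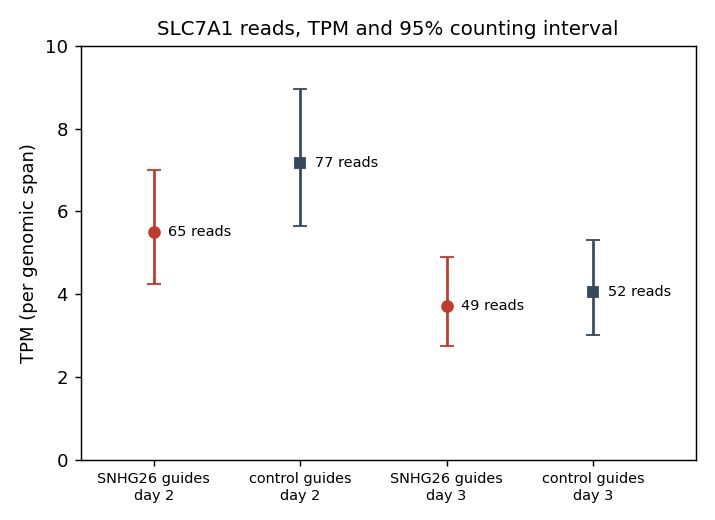
SLC7A1 in TPM per genomic span (vertical axis, from 0) in the 4 libraries, with the recovered number of reads beside each point and exact Poisson 95% intervals as bars. The intervals of the control libraries, at 77 reads on day 2 and 52 on day 3, are separate, whereas the intervals of the SNHG26 libraries, at 65 and 49 reads, overlap.

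SLC38A2 and SLC38A1 (SNAT2 and SNAT1) are neighbours on chromosome 12 and pull glutamine, alanine and other small neutral amino acids into the cell together with sodium. SLC38A2 (46358188 to 46372773, minus strand) was listed at 71.5 and 81.8 TPM on day 2 and at 52.7 and 67.2 TPM on day 3. Its day 3 values were 0.737 times the day 2 value with the SNHG26 guides and 0.822 times with the control guides, and the change was -0.36 (SE 0.22, limma adjusted p 0.760). SLC38A1 (46183063 to 46270017, minus strand) was lower than SLC38A2 in every library, at 3.30 and 3.84 TPM on day 2 and 2.40 and 2.40 TPM on day 3. Its change was -0.43 (SE 0.32, limma adjusted p 0.760), with the 2 libraries of day 3 nearly equal. An antisense gene, SLC38A2-AS1, overlaps SLC38A2 by 1356 bases and was listed at 7.54 TPM in the SNHG26 library of day 3 and at 0 in the other 3. Whether counting used strand is not given in the sources used here, so reads of the pair may be mixed there.

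The remaining amino acid carriers showed no common direction between the days. SLC7A3 (CAT3; chromosome X, 70925579 to 70931125, minus strand), the second arginine and lysine carrier, was listed at 103.0 and 94.5 TPM on day 2 and at 76.9 and 102.2 TPM on day 3. It was lower on day 3 with the SNHG26 guides and slightly higher with the control guides, for a change of -0.15 (SE 0.22, limma adjusted p 0.858). SLC3A2 (chromosome 11, 62856004 to 62888880, plus strand), the heavy chain that takes SLC7A5 and related light chains to the membrane, was listed at 23.5 and 33.8 TPM on day 2 and at 28.8 and 22.5 TPM on day 3. Its arms moved in opposite directions, and the change was -0.14 (SE 0.30, limma adjusted p 0.919). The 5' end of SLC3A2 overlaps the opposite-strand gene SNHG1 by 441 bases, and SNHG1 was listed at 47.9 to 85.9 TPM.

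SLC7A5 (chromosome 16, 87830016 to 87869507, minus strand), the light chain partner of SLC3A2, had a value in only 1 library. It was listed at 2.18 TPM with the control guides on day 2 and at 0 in the other 3 libraries, which put it below the filter. The value corresponds to 1 read on a span of 3693 bases, or to at most 10.7 reads on the full gene span. Which transcript was counted is not known. As a working limit, a count of 0 was taken to allow up to 3 reads. By this rule, on the span of 3693 bases, a count of 0 allows up to 5.31, 5.46 and 5.92 TPM in the 3 libraries at 0. That is above the single value, so on this span no difference between libraries was detectable. On the full span a count of 0 allows up to 0.496, 0.510 and 0.554 TPM, below the single value. Whether the libraries differ therefore depends on the transcript counted. A listed 0 need not mean that a gene is silent. RPTOR, a subunit of mTORC1 that cells need to grow, was 1 of 2334 genes listed at 0 in all 4 libraries. The cause of these zeros was not tested. With every gene tested, the limma adjusted p of SLC7A5 was 0.742 between days and 0.873 between guide arms.

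SLC2A3 and SLC2A1 (GLUT3 and GLUT1) let glucose in along its gradient. SLC2A3 (chromosome 12, 7919230 to 8019007, minus strand) was listed at 10.7 and 18.2 TPM on day 2 and at 29.9 and 27.8 TPM on day 3. The days did not overlap, and day 3 stood at 2.79 times day 2 with the SNHG26 guides and 1.53 times with the control guides. The means were 14.4 ± 5.27 TPM (SD, n = 2) and 28.8 ± 1.51 TPM (SD, n = 2), and the change was 0.99 (SE 0.33), with a limma adjusted p of 0.730 (unadjusted 0.0418). Its listed span of 99778 bases is longer than any of its transcripts in GENCODE release 29, the longest of which spans 17046 bases. On that transcript the values correspond to 25.1 and 38.6 reads on day 2 and 78.0 and 70.4 reads on day 3. SLC2A14, a near copy of SLC2A3 next to it with which reads could be shared, was listed at 0 in all 4 libraries.

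SLC2A1 (chromosome 1, 42925353 to 42958893, minus strand) was listed at 14.0 and 14.1 TPM on day 2, and at 18.8 TPM in the SNHG26 arm and 49.6 TPM in the control arm on day 3. The day 2 libraries were alike and the control library of day 3 was far above the other 3. Day 3 stood at 1.34 times day 2 in the SNHG26 arm and at 3.51 times in the control arm, for a change of 1.07 (SE 0.53, limma adjusted p 0.760). Without the control library of day 3 the change was 0.39. SLC16A1 (MCT1; chromosome 1, 112911847 to 112957593, minus strand), which moves lactate and pyruvate together with a proton, was listed at 2.96 and 5.25 TPM on day 2 and at 6.37 and 6.65 TPM on day 3. The change was 0.59 (SE 0.36, limma adjusted p 0.760), and 0.26 without the SNHG26 library of day 2. The whole of SLC16A1 lies inside the span listed for SLC16A1-AS1 on the opposite strand. SLC16A1-AS1 was listed at 0 and 2.21 TPM in the SNHG26 arm and at 3.76 and 5.42 TPM in the control arm, higher on day 3 in both arms, and its part in the SLC16A1 values was not tested.

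Summed over the 7 amino acid carriers, the libraries held 219.8 and 240.5 TPM on day 2 and 169.9 and 205.6 TPM on day 3, in each case with the SNHG26 guides first. Summed over the 3 glucose and lactate carriers they held 27.7 and 37.5 TPM on day 2 and 55.03 and 84.02 TPM on day 3. The first sum was lower and the second higher on day 3 in both arms. SLC7A3 and SLC38A2 make up most of the first sum, and SLC2A1 and SLC2A3 most of the second.

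**Figure D3:**
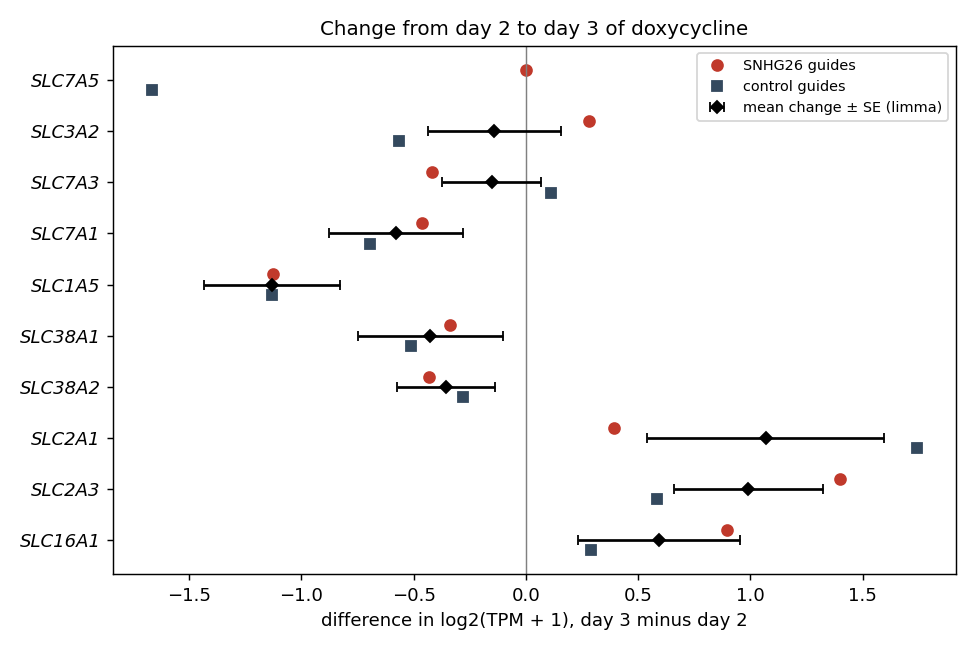
Difference in log2(TPM + 1) between day 3 and day 2 (horizontal axis) for each carrier, with red circles for the SNHG26 arm, dark squares for the control arm and black diamonds for the mean with its SE from limma (none for SLC7A5, below the filter). The 4 amino acid carriers from SLC7A1 to SLC38A2 lie left of 0 in both arms and the 3 glucose and lactate carriers right of 0, with means from -1.13 for SLC1A5 to 1.07 for SLC2A1 and single arms up to 1.74 for SLC2A1 in the control arm.

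Sequence at the starts of these genes was taken from RefSeq (GRCh38.p14), as windows of 250 bases before to 50 bases after each annotated start. The table held SLC7A5, SLC3A2, SLC7A1, SLC1A5, SLC38A1, SLC38A2 and SLC2A1, with 12 windows in all. The element TGATGNAA, searched on both strands, is the core that ATF4 binds together with C/EBP partners in genes of the amino acid response. It was found in 4 of the 12 windows, 1 each of SLC3A2, SLC7A1, SLC1A5 and SLC38A1, and in 3.62% of all 35116 windows. These sites are shown because 3 of the 4 genes, all but SLC3A2, are among the carriers that were lower on day 3. SLC38A2, also lower on day 3, had no match in its window, and of the carriers higher on day 3 only SLC2A1 had a window, with no match. Each line gives 30 bases in the direction of the gene, with the element in capitals, and the SLC3A2 match reads on the opposite strand.
SLC3A2, chr11:62881719-62881748, plus strand: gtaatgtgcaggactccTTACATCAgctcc
SLC7A1, chr13:29595663-29595692, minus strand: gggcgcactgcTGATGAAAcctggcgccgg
SLC1A5, chr19:46784893-46784922, minus strand: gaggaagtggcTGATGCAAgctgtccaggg
SLC38A1, chr12:46266502-46266531, minus strand: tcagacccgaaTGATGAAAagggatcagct
The SLC7A1 match begins 8 bases into the transcript. The SLC3A2, SLC1A5 and SLC38A1 matches belong to starts inside the genes as listed. A match of letters is not a site of binding, and these data hold no measure of ATF4 at these places.

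The E-box CACGTG, which reads the same on both strands and is bound by MYC and MAX, was found in 2 of the 12 windows, 1 of SLC7A5 and 1 of SLC1A5, and in 7.26% of all windows. The SLC7A5 match begins 130 bases before the start of the gene and the SLC1A5 match 50 bases before a start inside the gene. Both matches are shown, with the element in capitals. SLC2A1, also named above, had none in its window.
SLC7A5, chr16:87869620-87869649, minus strand: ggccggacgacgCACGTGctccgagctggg
SLC1A5, chr19:46787326-46787355, minus strand: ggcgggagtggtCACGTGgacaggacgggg

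The 250 bases before the starts of SLC38A2, lower on day 3, and SLC2A1, higher on day 3, are printed whole as an example of each direction, with the GC box GGGCGG or its complement in capitals. Of these, 4 lie before SLC38A2 and 2 before SLC2A1. The GC box, bound by SP1 and related factors, was found in 45.0% of all windows and in at least 1 window of each of the 7 carriers, so it does not separate the directions.
SLC38A2, chr12:46372774-46373023, minus strand: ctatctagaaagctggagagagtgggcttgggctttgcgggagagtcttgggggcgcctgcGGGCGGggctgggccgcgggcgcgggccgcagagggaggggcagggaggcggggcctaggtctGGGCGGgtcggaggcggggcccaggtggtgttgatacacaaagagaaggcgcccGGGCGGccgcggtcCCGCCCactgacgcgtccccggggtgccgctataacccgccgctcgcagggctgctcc
SLC2A1, chr1:42958869-42959118, minus strand: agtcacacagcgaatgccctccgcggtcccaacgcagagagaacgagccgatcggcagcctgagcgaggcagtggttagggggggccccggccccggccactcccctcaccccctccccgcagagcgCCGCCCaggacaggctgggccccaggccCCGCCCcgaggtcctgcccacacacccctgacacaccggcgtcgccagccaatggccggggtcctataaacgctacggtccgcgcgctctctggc

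Between the guide arms, no carrier had groups that did not overlap, against 29.2% of all genes tested. On both days, 5 carriers were lower with the SNHG26 guides than with the control guides of that day, against 21.8% of all genes, and none was higher on both days, against 24.8%. The 5 were SLC7A1, SLC1A5, SLC38A2, SLC2A1 and SLC16A1. In the limma test across 8274 genes, 0 genes (0%) were called, and the adjusted p-values of the 9 carriers ran from 0.941 to 0.998. At an unadjusted p under 0.05 there were 0 carriers, against 4.07% of all genes. The median change of the 9 carriers was -0.27, beside 0.04 for all genes tested. The 2 listed fibroblast markers summed to 7.95 and 7.99 TPM in the SNHG26 arm and to 10.7 and 11.9 TPM in the control arm, and their part in these values was not tested.

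The change nearest to a common size on both days was that of SLC1A5, with -0.37 on day 2 and -0.36 on day 3. Its day 2 value with the SNHG26 guides was 0.762 times that with the control guides, and its day 3 value 0.747 times. The mean change of -0.37 had an SE of 0.62, since the days themselves lie far apart in each arm. SLC38A2 stood at 0.874 and 0.785 times its control values, with a change of -0.27 (SE 0.27), and SLC7A1 at 0.766 and 0.916 times, with a change of -0.22 (SE 0.43). These sizes are within the spread of the libraries, which here includes the difference between days. With the day in the fit, the SE was 0.31 for SLC1A5, 0.23 for SLC38A2 and 0.35 for SLC7A1. The limma adjusted p-values were then 0.908, 0.908 and 0.965.

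SLC2A1 had the widest mean difference between the arms, -0.68 (SE 0.67, limma adjusted p 0.941), all of it from day 3. The arms stood at 14.0 and 14.1 TPM on day 2, and the SNHG26 library stood at 0.378 times the control library on day 3. Without the control library of day 3 the change was 0.19. The mean change of SLC2A3 was -0.30 (SE 0.58), made up of -0.71 on day 2 and 0.10 on day 3. That of SLC16A1 was -0.36 (SE 0.45), made up of -0.66 and -0.05. The means of SLC7A3, SLC38A1 and SLC3A2 were -0.14, -0.09 and -0.08. The sign of SLC7A3 and SLC3A2 was opposite on the 2 days, and SLC38A1 had -0.17 on day 2 and a value near 0 (0.0002) on day 3.

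**Figure D4:**
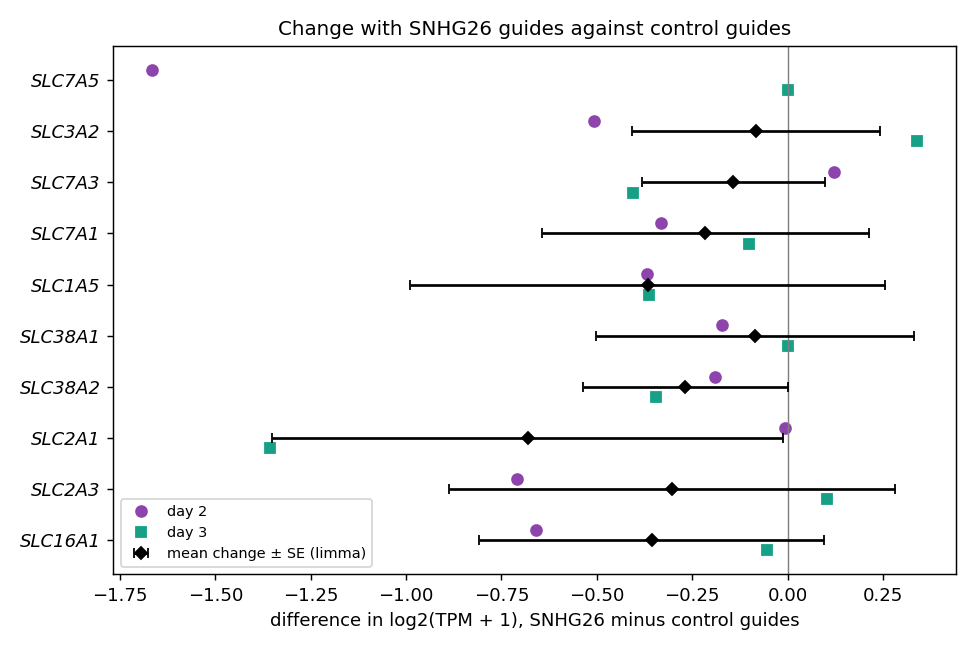
Difference in log2(TPM + 1) between SNHG26 guides and control guides (horizontal axis) for each carrier, with purple circles for day 2, green squares for day 3 and black diamonds for the mean with its SE from limma (none for SLC7A5, below the filter). All 9 means lie left of 0, from -0.68 for SLC2A1 to -0.08 for SLC3A2, the points of SLC3A2, SLC7A3 and SLC2A3 lie on both sides of it, and the day 3 point of SLC38A1 lies at about 0.

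Whether the guide difference itself differed between day 2 and day 3 was tested in limma by a contrast that crosses arm and day (the crossed contrast). Across 8274 genes, 8 were called (0.0967%), none of them among the 9 carriers, whose adjusted p-values ran from 0.961 to 0.999. At an unadjusted p under 0.05 there were 0 carriers, against 3.52% of all genes. The widest differences, day 3 minus day 2, were -1.35 (SE 1.34) for SLC2A1 and 0.85 (SE 0.50) for SLC3A2. SLC1A5 had 0.005 (SE 1.30), so its guide difference was nearly equal on the 2 days in these libraries. The fit held neither arm nor day, so differences by arm and by day count as error in these SEs and p-values. A gene with a large change by day or guides, such as SLC1A5 by day, could therefore hardly be called.

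Carriers that share a substrate or a complex were compared within each library, where scaling cancels. The ratio of SLC2A3 to SLC2A1 was 0.763 on day 2 and 1.59 on day 3 with the SNHG26 guides, and 1.29 and 0.559 with the control guides. The arms therefore went in opposite directions between the days, and a change of 1 glucose carrier against the other by day or guides was not shown (exact two-sided permutation p = 1 for days and 0.667 for guides). The ratio of SLC38A2 to SLC38A1 was 21.7 and 22.0 with the SNHG26 guides and 21.3 and 28.0 with the control guides. Of the 4 libraries, 3 lay between 21.3 and 22.0, and the ratio was higher on day 3 in both arms with no overlap between the days (exact two-sided permutation p = 0.333). The day difference of its log2 was 0.209, or 0.0696 with a pseudocount of 1, and 0.0343 without the control library of day 3. The ratio of SLC7A3 to SLC7A1 was 18.7 and 20.7 with the SNHG26 guides and 13.2 and 25.2 with the control guides, higher on day 3 in both arms and not overlapping between the days (exact two-sided permutation p = 0.333). This is the smallest p that 2 against 2 libraries allow. All 6 of these tests had an adjusted p of 1. The ratio of SLC7A5 to SLC3A2 was 0.0644 in the control library of day 2, with SLC7A5 listed at 0 elsewhere. These ratios are of TPM per genomic span, so their size does not compare molecules.

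Lists of related genes were read in the same fits, and none of their genes passed the limma threshold between days, between guide arms or in the crossed contrast. Of 26 other amino acid transporters, 22 were listed and 5 reached the filter, with a median day change of 0.48 and a median guide change of 0.65, beside 0.007 and 0.04 for all genes. The highest were SLC7A8, a light chain of SLC3A2 like SLC7A5, at 4.49 to 5.60 TPM, and SLC38A5, a glutamine carrier, at 0.943 to 7.04 TPM. No gene of this list had days that did not overlap, against 35.5% of all genes tested. In the lists below, genes wholly higher and wholly lower on day 3 numbered 2 and 1 of 4 tested glucose transporters. These were 0 and 0 of 2 monocarboxylate genes, 2 and 2 of 10 enzymes, and 3 and 1 of 15 sensing genes.

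Of 12 other glucose transporters, 8 were listed and 4 reached the filter, with a median day change of 0.16. SLC2A6, a glucose carrier of intracellular membranes, was listed at 12.1 and 12.5 TPM on day 2 and at 5.02 and 5.16 TPM on day 3, with a change of -1.13 (SE 0.25, limma adjusted p 0.466, unadjusted 0.0112). It was lower on day 3 in both arms, opposite to SLC2A1 and SLC2A3. SLC2A8 was listed at 2.04 and 1.55 TPM on day 2 and at 3.43 and 2.73 TPM on day 3 (change 0.55, SE 0.37).

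Of 7 other monocarboxylate transporters and chaperones, 5 were listed and 2 reached the filter. BSG (basigin), which takes SLC16A1 to the membrane, was listed at 163.0 and 158.4 TPM on day 2 and at 177.7 and 154.3 TPM on day 3, with a day change of 0.04 (SE 0.16). Unlike SLC16A1, it did not separate the days. EMB (embigin), a relative of BSG, was listed at 0.712 to 1.82 TPM, and SLC16A3, a carrier that exports lactate, was listed at 0 in all 4 libraries.

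Of 12 enzymes that act on the carried substrates, all 12 were listed and 10 reached the filter, with a median day change of -0.04. LDHA, which makes lactate from pyruvate, was listed at 77.5 and 68.9 TPM on day 2 and at 123.4 and 139.8 TPM on day 3. Its days did not overlap, with a change of 0.84 (SE 0.18, limma adjusted p 0.449, unadjusted 0.01). LDHB, the other lactate dehydrogenase subunit, was listed at 750.5 and 873.1 TPM on day 2 and at 560.6 and 748.2 TPM on day 3, a change of -0.32 (SE 0.20) in the opposite direction. Of 20 genes of amino acid sensing at the lysosome, all 20 were listed and 15 reached the filter, with a median day change of 0.04 and a median guide change of 0.009. The highest were LAMTOR4, at 153.0 to 188.9 TPM, and LAMTOR2, at 114.5 to 139.0 TPM, both subunits of the Ragulator complex that holds mTORC1 at the lysosome.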

How the data were processed

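Poly(A) RNA was read as strand-switched cDNA, amplified for 14 cycles without molecular identifiers, by nanopore sequencing, per the labels' protocols. The authors deposited gene-level TPM, with 1 column per library. The submitters' processing notes name minimap2 2.24-r1122 and GRCh38, and the counter, annotation release and filters are not given in the sources used here. The value of 1 read was recovered from mitochondrial genes, which have no introns. With it, 2853 genes (20.6% of 13840 above 0) lay within 0.0001 of whole reads on the gene span in every library. Since most did not, no count test was run.

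Genes whose mean reached 1 TPM were tested on log2(TPM + 1), which understates changes of low genes. The test was limma 3.58.1 in R 4.3.3 (eBayes with a trend), adjusted over 8274 genes. The guide fit was run on data simulated without a day effect, so that check does not give its power or error in these libraries. Same-day libraries share a number by the labelled day. Their deviations from the arm means had a correlation of 0.0464. Alternatives were pseudocounts of 0.1 and 5, no filter, means of at least 5 and 50 TPM, quantile and median ratio scaling, and no trend. Others were leaving out each library and the replicate block, which puts the day in the guide fit and the arm in the day fit. The members and lists were chosen with earlier results of these data known. All 10 members are named, the 2 highest genes of each related list, genes of those lists past the threshold, and SLC2A14. RPTOR, SLC16A3 and the overlapping genes with a value were named after their values were seen. Ratios were tested by exact permutation.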

Additional observations from a re-analysis of the deposited data

How the results depend on the processing

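No carrier passed the threshold between days, between guide arms or in the crossed contrast, under any alternative run. The count of carriers that passed stayed at 0. The mean of at least 50 TPM kept only SLC7A3 and SLC38A2. Over alternatives with all 4 libraries, the 9 carriers kept their direction in all 75 values of the guide change and all 75 of the day change, with limma adjusted p-values of at least 0.873 and 0.513. Filters, the trend and the replicate block cannot alter the size of a change, so only pseudocounts and scaling could have reversed one. The replicate block changed no call among the carriers, but it did change calls among other genes. By itself it called 0 of 8274 genes between days and between guide arms. Joined to the 50 TPM filter it left 2 carriers to test, and neither passed. Of the 1145 genes then tested, 19 were called higher and 16 lower on day 3. Between the arms, 4 were called higher and 10 lower with the SNHG26 guides. The 50 TPM filter without the block called 0 of 1145 genes in either comparison. In the crossed contrast 61 of 64 values kept their direction, and SLC1A5 reversed to -0.0242 with a pseudocount of 0.1, -0.0464 with quantile normalization and -0.0839 with median ratio scaling. Of the settings able to move it, only the pseudocount of 5 kept its direction (0.0596). The cause of the reversals was not tested.

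With 1 library left out, the lone library of a group is assumed to vary like the others. The day change kept its direction for 7 carriers, as it had to, since their days did not overlap. It ran from -1.31 to -0.95 for SLC1A5, -0.74 to -0.41 for SLC7A1, -0.53 to -0.18 for SLC38A2, -0.51 to -0.34 for SLC38A1, 0.39 to 1.75 for SLC2A1, 0.64 to 1.35 for SLC2A3 and 0.26 to 0.92 for SLC16A1. It crossed 0 for SLC3A2 (-0.39 to 0.11) and SLC7A3 (-0.36 to 0.0502). The guide change kept its direction for SLC38A2 (-0.48 to -0.05). It crossed 0 for SLC3A2 (-0.37 to 0.20), SLC7A3 (-0.35 to 0.0667), SLC7A1 (-0.56 to 0.13), SLC1A5 (-0.93 to 0.20), SLC38A1 (-0.34 to 0.17), SLC2A1 (-1.55 to 0.19), SLC2A3 (-1.002 to 0.40) and SLC16A1 (-0.80 to 0.0923). The log2 ratio of SLC2A3 to SLC2A1 differed by -0.22 to 0.98 between arms and by -0.83 to 0.68 between days. That of SLC38A2 to SLC38A1 differed by -0.36 to 0.0362 between arms, and that of SLC7A3 to SLC7A1 by -0.36 to 0.58. Between days these last 2 differed by 0.0343 to 0.385 and by 0.287 to 0.795, with signs fixed by days that did not overlap. Whether SLC7A5 differed between libraries depends on the span of the transcript counted, which is not known.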
